A study of Gallus gallus with 2 samples.

Results

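The limb bud mesenchyme analysed here comprised 1040 cells of the 60000 cell barcodes in a single-cell RNA table. The tissue was the posterior end of the embryo of the chicken, Gallus gallus. Members were chosen by measured values, namely marker gene levels, depth, W-linked molecules and barcode molecules. A cell belonged to it if it held at least 4000 gene molecules, of which at most 20% were mitochondrial. Such a cell also needed limb mesenchyme genes: at least 1 molecule of PRRX1 and at least 2 of the hindlimb genes TBX4 and PITX1 together per 10000. Cells with 1 or more molecules of GATA4, GATA5 and FOXF1 together, or of EPCAM, per 10000 were left out, which removes splanchnic mesoderm and epithelium. Cells also needed under 3 molecules of the W-linked genes HINTW, SPIN1L and UBAP2L2, so that only male-type cells (birds: ZZ male, ZW female) remained. Each cell was given to the lipid barcode with the most molecules if that barcode had at least 10 and at least 3 times those of the next. This left 767 cells with barcode SBC3 and 273 with SBC7. A further 79 cells carried SBC2 and are quoted beside them, and 288 had no assigned barcode. Differences in these measures are therefore given as a description only.

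The embryos were wild type (WT) in genotype and were taken after 72 h of incubation, at 35 somites per the series title. The series holds controls and embryos given 20 uL of homocysteine, a sulphur amino acid formed from methionine, at 19 mM for the high dose or 0.5 mM for the low dose. Tissue was dissociated with Accutase for 15 min at 37 °C. Batches of 250000 cells, each from its own tissue, were then marked with a lipid-anchored DNA barcode at 200 nM before BD Rhapsody capture, which pairs cells with barcoded beads in microwells. The labels do not say which treatment, how many embryos or which replicate a barcode stands for. SBC3 and SBC7 were therefore compared as 1 pooled sample each, with no test, and the effect of homocysteine cannot be read from them. Differences in embryo stage, in the level at which tissue was cut and in treatment between the barcodes cannot be told apart. Intervals below are 95% exact Poisson intervals for molecules per 1000000 (CPM) and 95% exact binomial (Clopper-Pearson) intervals for shares of cells, and both cover counting error only.

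The limb bud grows out from lateral plate mesoderm as PRRX1-positive mesenchyme under an ectodermal ridge, and TBX4 with PITX1 marks the hindlimb. Its cells read 3 axes: SHH from the posterior margin, opposed by anterior factors such as ALX4, sets the antero-posterior axis. LMX1B is the dorsal determinant, and MEIS genes mark proximal and late HOXA and HOXD genes distal cells. HOX genes of the highest paralogue groups lie at one end of each cluster and are switched on last and most posteriorly along the trunk and tail.

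The SBC3 cells held 30702519 gene molecules with a median of 34386 per cell, and the SBC7 cells 13245301 with a median of 42371. The SBC2 median was 29700. Mitochondrial molecules had medians of 12.8% in SBC3 and 11.9% in SBC7. The barcode itself was less clear in SBC7: its median was 598 molecules of the own barcode per cell, against 1853 in SBC3. SBC3 was the next barcode in 214 of the 273 SBC7 cells, and SBC7 in 662 of the 767 SBC3 cells. Of the SBC3 cells 92.7% had a barcode at least 5 times the next, and of the SBC7 cells 68.1%. Just inside the limit of 3 lay 25 SBC3 and 47 SBC7 cells with a ratio of 3 to 4, and just outside it 33 and 77 cells with a ratio of 2 to 3. Before the W-linked limit, 24 of 791 SBC3 cells and 0 of 273 SBC7 cells had 3 or more W-linked molecules, which for SBC7 allows a share of up to 1.34%.

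The share of limb bud mesenchyme did not differ between SBC3 and SBC7 beyond counting error. It was 18.0% of the assigned male-type cells of SBC3 (16.9 to 19.2%) and 17.8% of those of SBC7 (15.9 to 19.8%), against 10.5% in SBC2 (8.44 to 12.97%).

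The rule used PRRX1 and the sum of TBX4 and PITX1, so the levels of these genes describe the cells and do not test the label. TBX4 was at 97.3 CPM in SBC3, 98.0 in SBC7 and 105 in SBC2, and PITX1 at 448, 461 and 488. PRRX1, a homeobox factor of limb mesenchyme, was at 1286 CPM (1273 to 1299) in SBC3, 1179 (1160 to 1198) in SBC7 and 1337 in SBC2. In all other male-type cells of SBC3 and SBC7, TBX4 was at 35.1 and 61.5 CPM. PITX1 was at 231 and 425 there, and PRRX1 at 329 and 621. PITX1 in SBC7 limb cells was thus close to its level in the other SBC7 cells. TBX5, the forelimb counterpart of TBX4, was at 1.24 and 1.59 CPM, against 14.2 and 7.44 in all other male-type cells of SBC3 and SBC7. Of limb markers that the rule did not use, TWIST1, a mesenchymal bHLH factor, was at 355 and 378 CPM in SBC3 and SBC7 limb cells, against 140 and 217 in the other cells. FGF10, the outgrowth signal to the ridge, was at 57.1 (54.5 to 59.9) and 62.1 (57.9 to 66.4), against 22.6 and 28.3. LMX1B stood at 234 and 150 CPM, against 45.5 and 40.5. TBX3, at 161 CPM in SBC7 limb cells, was below the 191 of the other SBC7 cells, and HAND2, at 474, was close to their 445. Molecules are counted per gene without a length correction, so levels are compared between barcodes and not between genes.

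Most of the transcriptome was alike. Over 8281 genes with a mean of at least 10 CPM, the median log2 ratio of SBC7 to SBC3 was 0.0023, and 5% to 95% of genes lay between -0.35 and 0.28. At least 1.5-fold higher in SBC7 were 85 genes (1.03% of the genes compared), and at least 1.5-fold lower 106 (1.28%), together 191 (2.31%). At 2-fold there were 28 (0.338%) and 25 (0.302%), together 53 (0.64%). Of the 85 genes 6, and of the 106 genes 5, had over 50% of their molecules in only 10 cells of the barcode where they were higher. As SBC7 has fewer cells, 10 cells are a larger part of it, so these counts are not directly comparable.

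**Figure D1:**
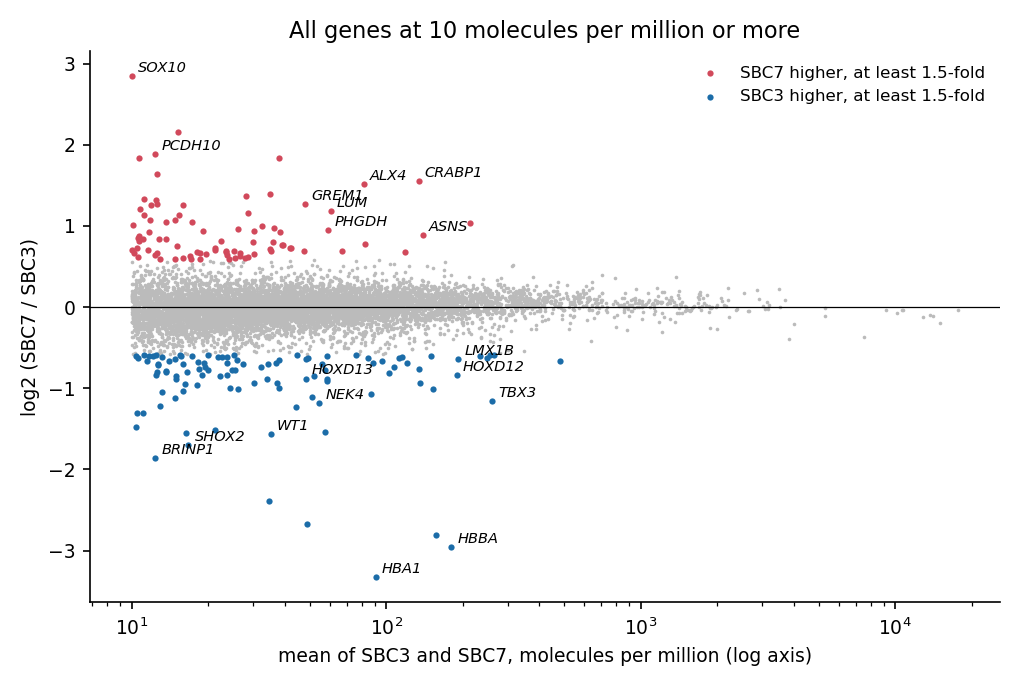
Log2 ratio of SBC7 to SBC3 (y axis) against the mean of both barcodes in molecules per 1000000 (log x axis) for 8281 genes in limb bud mesenchyme. Coloured points are the 85 genes at least 1.5-fold higher in SBC7 and the 106 at least 1.5-fold lower; there are no error bars, and each barcode is 1 pooled sample.

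Of the antero-posterior limb factors, 17 of 25 listed reached 10 CPM. Of these, 2 were at least 1.5-fold higher in SBC7 and 3 lower, with a list median of -0.08 on the log2 scale. The shares over all genes compared were 1.03% higher and 1.28% lower. In the list, the 2 higher were ALX4 and GREM1. ALX4 (chromosome 5, 21340165 to 21369930 on GRCg7b), a homeobox repressor of the anterior limb bud, was at 42.3 CPM in SBC3 (40.0 to 44.7), 121 in SBC7 (115 to 127) and 67.5 in SBC2. That is 2.86-fold higher in SBC7 than in SBC3. GREM1 (chromosome 5, 30058437 to 30068310), the secreted BMP antagonist that links SHH to the ridge, was at 28.2 CPM in SBC3 (26.4 to 30.1), 67.7 in SBC7 (63.4 to 72.3) and 4.88 in SBC2. SBC2 was thus the lowest of the 3 for GREM1 but lay between the others for ALX4. The 3 lower genes of the list were TBX3, HOXD12 and HOXD13. Limb outgrowth and early limb factors moved less. Among 22 of them at 10 CPM, none was at least 1.5-fold higher in SBC7 and 1 was lower, with a median of 0.02.

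TBX3 (chromosome 15, 11922573 to 12225420), a T-box repressor of the limb bud margins, was at 359 CPM in SBC3 (352 to 366), 161 in SBC7 (154 to 168) and 222 in SBC2. Its level was 2.23-fold higher in SBC3 than in SBC7. TBX2, its closest paralogue, differed less, with 156 CPM in SBC3 and 133 in SBC7. HAND2, the posterior factor upstream of SHH, was at 571 CPM in SBC3 (563 to 580) and 474 in SBC7 (462 to 486), below 1.5-fold. SHH itself was at 14.4 CPM in SBC3, 5.13 in SBC7 and 5.69 in SBC2. Its mean lay under 10 CPM, and 77.1% of its SBC3 molecules and 69.1% of its SBC7 molecules lay in 10 cells. Barcodes with under 500 detected genes, which serve as a measure of free RNA, held SHH at 64.3 CPM.

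LMX1B (chromosome 17, 10665426 to 10802338), the dorsal determinant, was at 234 CPM in SBC3 (229 to 240), 150 in SBC7 (144 to 157) and 165 in SBC2, a 1.56-fold difference between SBC3 and SBC7. It was the only one of 3 dorso-ventral genes to reach 10 CPM. Without cells that carried haemoglobin, neural crest or neural molecules its log2 ratio was -0.54, and with SBC7 cells weighted to the depths of SBC3 cells -0.58, both short of 1.5-fold.

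Among proximal-distal factors 15 of 20 reached 10 CPM, with 2 at least 1.5-fold higher in SBC7 and 2 lower, and a list median of -0.10. The shares over all genes compared were 1.03% and 1.28%. In the list, the higher were CRABP1 and CYP26A1, and the lower SHOX2 and ALDH1A2. The proximal factors MEIS1, at 315 and 293 CPM, and MEIS2, at 935 and 904 CPM, were near equal in SBC3 and SBC7. Of these 4, all but SHOX2 handle retinoic acid, the vitamin A derivative that acts from the trunk on proximal limb cells. CRABP1 (chromosome 10, 3719337 to 3732157), an intracellular carrier, was at 68.3 CPM in SBC3 (65.4 to 71.3), 200 in SBC7 (192 to 207) and 21.5 in SBC2, or 2.92-fold higher in SBC7 than in SBC3. ALDH1A2 (chromosome 10, 7127145 to 7182584), the enzyme that makes retinoic acid, was at 318 CPM in SBC3 (312 to 325), 211 in SBC7 (204 to 219) and 258 in SBC2. CYP26A1 (chromosome 6, 21357933 to 21361343), the enzyme that degrades it, was at 9.22 CPM in SBC3 (8.18 to 10.4), 16.5 in SBC7 (14.3 to 18.8) and 10.2 in SBC2. ALDH1A2 thus had the lower and CYP26A1 and CRABP1 the higher level in SBC7 limb cells. In splanchnic mesoderm ALDH1A2 went the other way, with 342 CPM in SBC3 and 596 in SBC7. So it did in surface ectoderm, with 26.6 and 93.8 CPM, while in neural tube it was at 10.1 and 9.59. The higher CRABP1 level in SBC7 was not particular to limb cells. It was at 58.0 and 237 CPM in neural tube, 67.3 and 127 in splanchnic mesoderm and 10.7 and 25.1 in surface ectoderm. CYP26A1 was at 15.4 and 15.7 CPM in splanchnic mesoderm, 36.1 and 44.3 in surface ectoderm and 6.14 and 2.74 in neural tube. The carrier CRABP2, paralogue of CRABP1, was at 2178 and 1803 CPM, below 1.5-fold. ALDH1A2 itself was only just past 1.5-fold, with a log2 ratio of -0.59, and fell short of it under 4 of 14 other settings.

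SHOX2 (chromosome 9, 22316009 to 22320894), a homeobox factor of the proximal limb, was at 25.5 CPM in SBC3 (23.8 to 27.4), 7.85 in SBC7 (6.42 to 9.51) and 24.0 in SBC2. SBC7 thus stood apart from both other barcodes for SHOX2. SOX9, which marks cartilage condensations, was at 24.6 and 25.6 CPM.

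**Figure D2:**
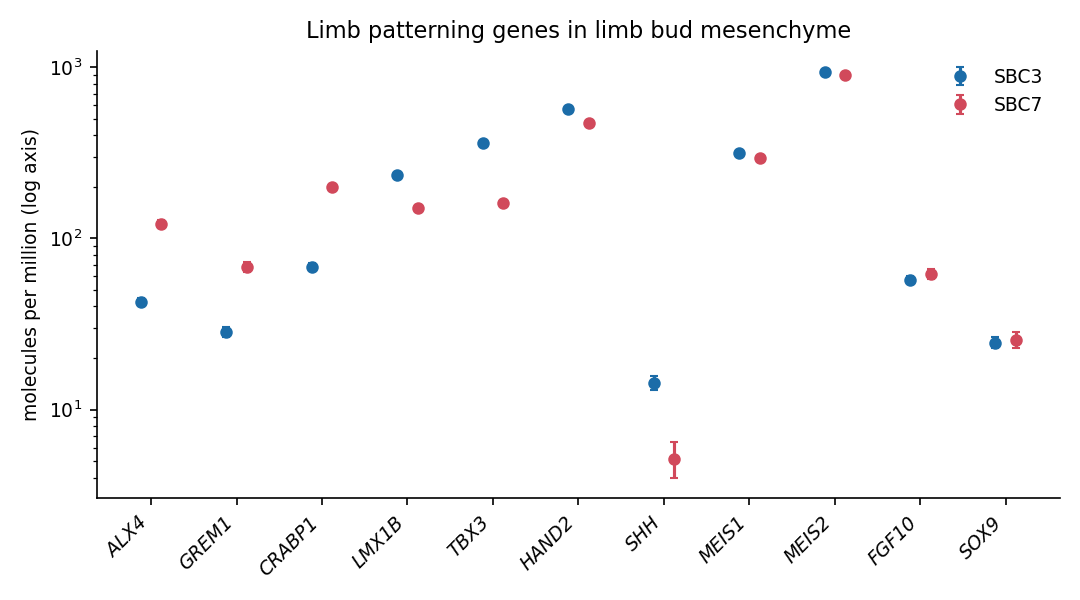
Molecules per 1000000 (log y axis) of 11 limb patterning genes in SBC3 and SBC7 limb bud mesenchyme, with 95% exact Poisson intervals that cover counting error only; each barcode is 1 pooled sample. ALX4, GREM1 and CRABP1 are higher in SBC7 and TBX3 and LMX1B in SBC3, while MEIS1, MEIS2, FGF10 and SOX9 are close. SHH, with a mean under 10 molecules per 1000000 and most molecules in few cells, is shown but not read as a difference.

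The HOX genes split by paralogue group rather than by cluster. All 8 genes of groups 11 to 13 that reached 10 CPM were lower in SBC7, with log2 ratios from -0.88 to -0.19 and a median of -0.57. Of 25 genes of groups 1 to 10, 23 were higher in SBC7 and 2 lower, with ratios from -0.03 to 0.71 and a median of 0.13. Over all genes compared, 4194 of 8281 were higher in SBC7. The line between groups 10 and 11 was drawn after the values were seen. In the lists as set, 4 of 15 genes of groups 9 to 13 were at least 1.5-fold lower in SBC7, namely HOXD12, HOXD13, HOXC11 and HOXC12, and none was higher. Of 18 genes of groups 1 to 8, HOXB1 alone was 1.5-fold higher and none was lower. The shares over all genes compared were 1.03% higher and 1.28% lower. HOXC11 missed 1.5-fold under 3 of 14 other settings, HOXB1 under 2, and HOXC12 and HOXD13 under 1 each.

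Within the HOXD cluster on chromosome 7 the ratio turned between neighbours. HOXD10 (15924456 to 15929714) was at 116 CPM in SBC3 (112 to 119) and 121 in SBC7 (115 to 127). HOXD11 (15930374 to 15936559) was at 413 (406 to 420) and 283 (274 to 292). HOXD12 (15941697 to 15943299) was at 243 CPM in SBC3 (237 to 249), 136 in SBC7 (129 to 142) and 179 in SBC2. HOXD13 (15947381 to 15949931) was at 62.5 CPM in SBC3 (59.7 to 65.3), 33.9 in SBC7 (30.8 to 37.2) and 47.2 in SBC2. In CPM, SBC2 therefore lay between SBC3 and SBC7 for both genes, but not in the share of cells with HOXD12 given below. The ratios of SBC3 to SBC7 were 1.79 for HOXD12 and 1.84 for HOXD13.

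The HOXC cluster turned at the same group. HOXC10 was at 292 CPM in SBC3 and 320 in SBC7, HOXC11 at 181 (176 to 185) and 119 (113 to 125), and HOXC12 at 72.8 (69.8 to 75.8) and 42.5 (39.1 to 46.2). HOXC13 was low, at 14.4 CPM (13.1 to 15.8) and 11.6 (9.79 to 13.5). In the HOXA cluster HOXA10 was at 150 and 152 CPM, HOXA11 at 223 and 195, and HOXA13, the distal limb gene, at 268 (262 to 274) and 205 (198 to 213). At the other end, HOXB1 was at 26.5 CPM (24.7 to 28.4) in SBC3 and 43.3 (39.9 to 47.0) in SBC7, and HOXB4 at 101 (97.7 to 105) and 144 (138 to 151). HOX genes lie close together and some of their annotated spans overlap, and how the counting used strand is not given in the sources used here, so molecules of neighbours may be shared.

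**Figure D3:**
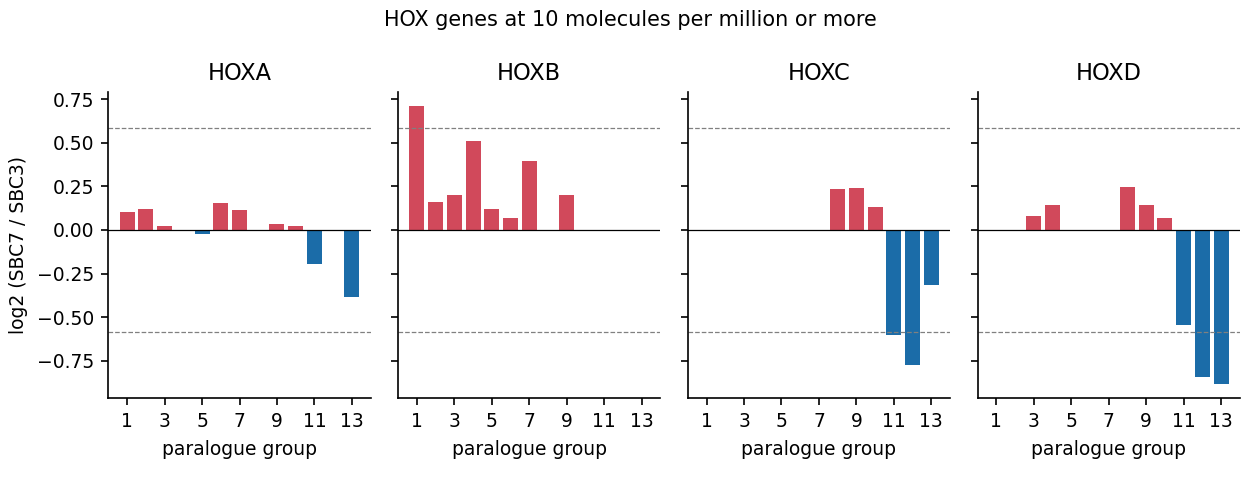
Log2 ratio of SBC7 to SBC3 limb bud mesenchyme (y axis) for the 33 HOX genes at 10 molecules per 1000000 or more, by cluster and paralogue group (x axis). Bars start at 0, dashed lines mark 1.5-fold, and bars below 0 are found for all 8 genes of groups 11 to 13.

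For HOXD12, HOXA13 and HOXC12 the same direction was seen in other cells of the same barcodes. HOXD12 was at 223 CPM in SBC3 and 42.9 in SBC7 neural tube cells, at 123 and 70.4 in splanchnic mesoderm, and at 53.3 and 18.5 in surface ectoderm. HOXA13 was at 591 and 361 CPM in splanchnic mesoderm, 83.0 and 20.1 in neural tube and 285 and 105 in surface ectoderm. HOXC12 was at 152 and 46.1 CPM in neural tube. These HOX genes were thus lower in SBC7 in all 4 cell types compared. HOXD10, near equal in limb cells, was lower in SBC7 neural tube. It was at 166 CPM in SBC3 (159 to 174) and 96.8 in SBC7 (84.2 to 111) there. The turn after HOXD10 was thus not seen in neural tube. In splanchnic mesoderm HOXD10 was at 62.8 and 75.2 CPM, and in surface ectoderm at 67.4 and 60.6. The neural tube values rest on 259 SBC3 and 51 SBC7 cells. TBX3 was lower in SBC7 also in splanchnic mesoderm (316 and 196 CPM) but not in neural tube, with 14.9 and 28.8 CPM, while ALX4 was higher in SBC7 splanchnic mesoderm (54.1 and 118 CPM) and low in neural tube (3.44 and 4.57 CPM). SHOX2 was under 5 CPM in all 3 other cell types.

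Between SBC3 and SBC7, shares of cells gave the same picture at equal depth. After every cell was thinned to 4000 molecules, HOXD12 was found in SBC3 in 56.2% (52.6 to 59.7%) and in SBC7 in 35.9% (30.2 to 41.9%). The SBC2 share was 29.1% (19.4 to 40.4%), so on this measure SBC2 did not lie between them. In endothelial-type cells of any barcode, which had a median of 34239 molecules when not thinned, HOXD12 was found in 4.85%. For TBX3 the share was 66.2% in SBC3 (62.8 to 69.6%) and 36.3% in SBC7 (30.6 to 42.3%), and in 24.2% of the endothelial-type cells. ALX4 reached 16.0% in SBC3 (13.5 to 18.8%), 33.7% in SBC7 (28.1 to 39.6%) and 3.94% of endothelial-type cells. CRABP1 was present in 19.7% in SBC3 (16.9 to 22.7%) and in 42.5% in SBC7 (36.6 to 48.6%), against 1.21% of endothelial-type cells. LMX1B was found in 48.9% (45.3 to 52.5%) and 37.4% (31.6 to 43.4%), against 2.12%. Without thinning, its shares were 77.7% and 78.4%, the SBC7 cells being deeper. SHH was found in 2.35% of SBC3 and 0.733% of SBC7 cells, against 1.21% of endothelial-type cells (0.331 to 3.07%) and 2.66% of neural tube cells, which include its source in the floor plate. The SBC3 and SBC7 intervals, 1.40 to 3.68% and 0.0888 to 2.62%, overlap each other and that of the endothelial-type cells. With only 18 SBC3 and 2 SBC7 cells holding a molecule, a difference in SHH share could not be judged at this depth.

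**Figure D4:**
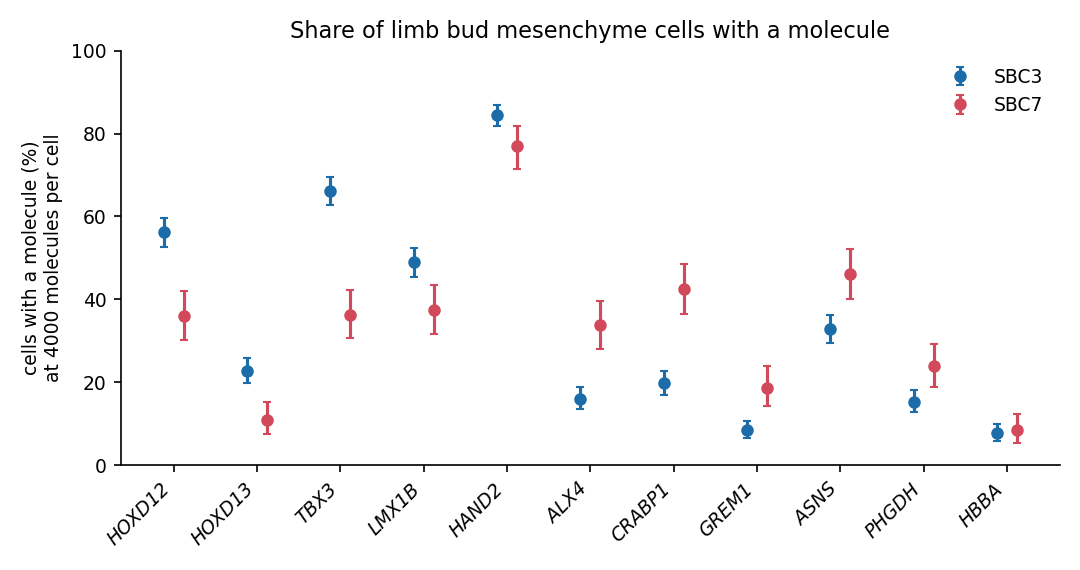
Share of limb bud mesenchyme cells with at least 1 molecule (y axis, percent) after thinning each cell to 4000 molecules, for 767 SBC3 and 273 SBC7 cells, with 95% exact binomial intervals that cover counting error only. HOXD12, HOXD13, TBX3 and LMX1B are found in more SBC3 cells, ALX4, CRABP1, GREM1 and ASNS in more SBC7 cells, and the intervals of HBBA overlap.

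Cell by cell, HOXD12 was read in cells with and without ALX4, within each barcode and after thinning to 4000 molecules. ALX4 and HOXD12 had been named in part for their ratios in these same cells. The intervals cover counting error only, as the cells of a barcode are a pooled sample and no replicates. In SBC7, HOXD12 was found in 17 of 92 cells with ALX4 (18.5%, 11.1 to 27.9%) and in 81 of 181 cells without it (44.8%, 37.4 to 52.3%). In SBC3 these shares were 53.7% (44.4 to 62.7%) of 123 cells and 56.7% (52.7 to 60.5%) of 644 cells. TBX3 was likewise found in 20.7% of SBC7 cells with ALX4 (12.9 to 30.4%) and 44.2% of those without (36.8 to 51.8%), and in SBC3 in 55.3% (46.1 to 64.3%) and 68.3% (64.6 to 71.9%). The intervals of cells with and without ALX4 thus lay apart in SBC7 for both genes, and in SBC3 for TBX3 just so, while they overlapped in SBC3 for HOXD12; the difference between barcodes was not tested. CRABP1 was found in 42.9% of SBC7 cells with HOXD12 and 42.3% of those without, and in 19.7% and 19.6% in SBC3. Split by ALX4, CRABP1 was found in 55.4% of SBC7 cells with it (44.7 to 65.8%) and 35.9% without (28.9 to 43.4%). In SBC3 these were 15.4% (9.56 to 23.1%) and 20.5% (17.4 to 23.8%). The CRABP1 intervals thus lay apart in SBC7 and overlapped in SBC3. ASNS was found in 48.0% and 45.1% of SBC7 cells with and without HOXD12, and in 31.3% and 34.8% in SBC3. Not finding a molecule at this depth does not show that a cell lacks the gene.

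The ratios of HOXD12, TBX3 and ALX4 were also read inside strata of cells, which were drawn after the values were seen. The strata are parts of the same pooled samples, so they are no repeat of the comparison. Among cells with 20000 to 50000 molecules (496 in SBC3, 158 in SBC7), the log2 ratio was -1.12 for HOXD12, -1.41 for TBX3 and 1.69 for ALX4. Among cells with 50000 or more (204 and 101), these were -0.59, -0.78 and 1.38. Among the 67 and 14 cells under 20000 they were -0.85, -0.14 and 1.01, so that TBX3 was near equal there. Among cells in which LMX1B was found (375 and 102) they were -0.83, -1.07 and 1.63, and where it was not found (392 and 171) -0.78, -1.22 and 1.42.

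Other mesenchymal and mesodermal genes also differed. WT1 (chromosome 5, 5632358 to 5720014), a zinc-finger factor of the coelomic lining and kidney, was at 52.6 CPM in SBC3 (50.1 to 55.3), 17.7 in SBC7 (15.6 to 20.2) and 48.8 in SBC2. Its intermediate mesoderm list summed to 153 CPM in SBC3 and 106 in SBC7 over 8 genes, 3 of them at 10 CPM. That sum includes WT1 itself, the only one of the 3 past 1.5-fold, so it does not show a wider difference. In splanchnic cells WT1 was at 72.9 and 52.99 CPM. FGF7, a mesenchymal growth factor for epithelia, was at 15.3 CPM in SBC3, 5.51 in SBC7 and 4.47 in SBC2, so that SBC2 was as low as SBC7. TWIST2, a mesenchymal bHLH factor, was at 75.5, 41.0 and 70.3 CPM. LUM (chromosome 1, 44041583 to 44053528), the collagen-binding proteoglycan lumican, was at 37.0 CPM in SBC3 (34.9 to 39.2), 83.9 in SBC7 (79.0 to 89.0) and 65.5 in SBC2. POSTN, a matricellular protein, was at 42.4 and 26.0 CPM. LUM and POSTN were the genes past 1.5-fold, 1 in each direction, among 31 matrix and adhesion genes, whose median log2 ratio was 0.00. POSTN fell short of 1.5-fold, at -0.54, without cells carrying molecules of other types.

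Of the genes with the highest ratio, PCDH10, a protocadherin, was at 5.28 CPM in SBC3, 19.5 in SBC7 and 1.63 in SBC2. ADAMTS18, a secreted protease, was at 7.17 and 17.8 CPM, and IGF2, a fetal growth factor, at 7.36 and 17.8. PLA2G7 was at 6.55 and 15.1 CPM and NDRG1 at 9.41 and 22.5. NDRG1, a hypoxia-responsive gene, was the one gene past 1.5-fold among 22 glycolysis and hypoxia genes at 10 CPM. The sum over all 28 such genes in the table was 8046 CPM in SBC3 and 9025 in SBC7. Of those with the lowest, BRINP1 was at 19.4 CPM in SBC3, 5.36 in SBC7 and 4.88 in SBC2. EMILIN3 was at 24.3, 8.30 and 22.4 CPM, KCNIP4 at 31.5, 11.02 and 31.7, and AKR1D1 at 15.7, 6.34 and 10.6. NEK4 (chromosome 12, 852461 to 891498), a NIMA-related kinase, was at 75.7 CPM in SBC3 (72.6 to 78.8), 33.4 in SBC7 (30.3 to 36.6) and 45.5 in SBC2. NEK4 was lower in SBC7 in every cell type compared, with 70.1 and 29.2 CPM in neural tube, 60.6 and 33.8 in splanchnic mesoderm and 56.6 and 29.1 in surface ectoderm.

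Genes of homocysteine, methionine and folate metabolism, which remethylate homocysteine to methionine or divert it to cysteine, gave no gene past 1.5-fold in either direction among 27 at 10 CPM. All 34 in the table summed to 2136 CPM in SBC3, 2356 in SBC7 and 2208 in SBC2. Over all genes compared 4194 of 8281 were higher in SBC7, with a median log2 ratio of 0.0023. Of the 27, 22 were higher, and their median log2 ratio was 0.12. This shift was not particular to the list. Of 22 heat shock and chaperone genes at 10 CPM, 16 were higher, with a median log2 ratio of 0.14. MTRR, which reactivates methionine synthase, had the ratio farthest from 1, at 19.9 CPM in SBC3 (18.4 to 21.5) and 29.1 in SBC7 (26.2 to 32.1). CTH, which makes cysteine from cystathionine, was at 228 (223 to 234) and 267 (259 to 276). CBS, the enzyme that commits homocysteine to that route, was at 11.1 (9.96 to 12.4) and 12.8 (10.98 to 14.9), so its intervals overlapped. None of 8 DNA methylation enzymes passed 1.5-fold. Over all genes compared 2.31% did, so few or none were to be met among these 8 or the 27 above.

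In the ER stress and amino-acid response list 3 of 28 genes were at least 1.5-fold higher in SBC7 and none was lower, while the list median was 0.00. Over all genes compared 1.03% were at least 1.5-fold higher. All 3 genes of the list make non-essential amino acids. ASNS (chromosome 2, 24567634 to 24581367), asparagine synthetase, was at 97.6 CPM in SBC3 (94.1 to 101), 181 in SBC7 (174 to 188) and 137 in SBC2. PHGDH (chromosome 8, 4252500 to 4255797), the first enzyme of serine synthesis, was at 40.3 CPM in SBC3 (38.1 to 42.6), 77.9 in SBC7 (73.2 to 82.8) and 63.4 in SBC2. PSPH, its last enzyme, was at 7.59 CPM (6.65 to 8.63), 15.9 (13.8 to 18.2) and 11.4. The SBC2 value lay between the others for each of the 3. For PSPH its interval (7.56 to 16.5) overlapped those of both SBC3 and SBC7, so its rank cannot be read. For PHGDH the SBC2 interval (53.9 to 74.2) overlapped that of SBC7. ATF4, the transcription factor of the response, was at 961 CPM in SBC3 and 993 in SBC7. ASNS was also higher in SBC7 in neural tube (132 and 205 CPM), splanchnic mesoderm (93.1 and 165) and surface ectoderm (95.2 and 132). PHGDH was higher in splanchnic mesoderm (27.7 and 56.1 CPM) and ectoderm (54.7 and 89.7), while its intervals overlapped in neural tube, at 78.8 (73.6 to 84.3) and 90.4 (78.3 to 104). LIN28A, an RNA-binding protein of early embryonic cells, was at 138 CPM in SBC3 (134 to 142), 202 in SBC7 (194 to 210) and 209 in SBC2, below 1.5-fold in limb cells. In splanchnic mesoderm it was at 127 and 239 CPM.

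**Figure D5:**
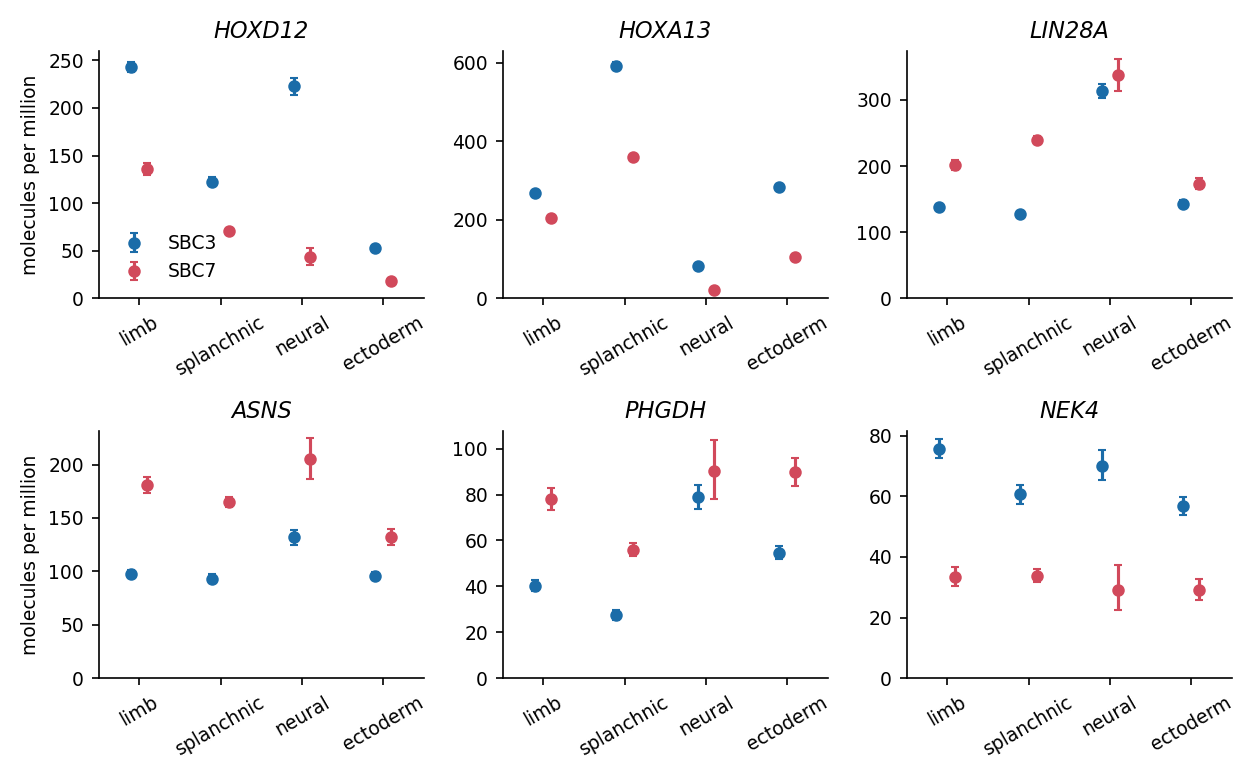
Molecules per 1000000 (y axis) of 6 genes in SBC3 and SBC7 cells of 4 cell types (x axis: limb bud mesenchyme, splanchnic mesoderm, neural tube, surface ectoderm), with 95% exact Poisson intervals that cover counting error only. HOXD12, HOXA13 and NEK4 are lower and ASNS higher in SBC7 in all 4 cell types; the intervals of LIN28A and PHGDH overlap in neural tube.

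Several growth and stress lists held no gene past 1.5-fold. Over all genes compared 2.31% passed it, a share at which short lists would hold few or none. None of 45 S-phase genes (6570 and 6706 CPM in SBC3 and SBC7), 39 genes of G2 or M phase (10169 and 10097 CPM over all 41 in the table), 67 ribosomal protein genes, 51 nuclear genes of oxidative phosphorylation, 25 antioxidant genes, 16 p53 targets or 22 heat shock genes passed 1.5-fold. All 13 mitochondrially encoded genes were lower in SBC7, summing to 124200 and 114404 CPM. ND2, at 8465 and 6580 CPM, was also lower in SBC7 in neural tube (8743 and 6496). Among 16 immediate-early genes, which tissue dissociation can induce, 1 was at least 1.5-fold lower in SBC7, ZFP36L1 at 308 and 205 CPM, which missed 1.5-fold under 5 of 14 other settings. The list median was -0.21, and 3 of the 16 genes were higher in SBC7, against 4194 of 8281 over all genes compared. FOS, at 127 and 133 CPM, was near equal. The Notch target HES1 was at 177 CPM in SBC3 (173 to 182), 93.1 in SBC7 (88.0 to 98.4) and 155 in SBC2, and the ligand JAG2 at 7.75, 13.7 and 23.2. Each was the one gene past 1.5-fold in its direction among 11 Notch genes. Of 19 WNT genes ROR1, a WNT receptor, alone passed 1.5-fold, at 26.2 CPM in SBC3 and 45.8 in SBC7. Of 17 BMP and TGF-beta genes GREM1 alone did, and BMP4 was at 297 and 234 CPM. SOX6, a cartilage cofactor of SOX9, was at 8.89 and 18.4 CPM and was the one among 7 chondrogenic and tendon genes.

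Haemoglobin and SOX10 molecules were concentrated in few cells. In SBC7 the 10 highest cells also held 77.4% of TFAP2B, 51.5% of SOX21 and 46.1% of SOX2 molecules. For SBC3 these shares were 36.4%, 44.8% and 33.4%. As 10 cells are a larger part of the 273 SBC7 than of the 767 SBC3 cells, the shares are not directly comparable. The endothelial and neural crest factor ETS1 was more evenly spread, with 8.71% of its SBC3 molecules in the 10 highest cells. The 4 haemoglobin genes with at least 10 CPM were all lower in SBC7, by 2.67 to 3.33 on the log2 scale. Of the 25891 haemoglobin molecules of SBC3, 92.3% lay in 10 cells, and the median was 2 molecules per cell in both barcodes. HBBA was found at equal depth in 7.69% of SBC3 cells and 8.42% of SBC7 cells, against 10.6% of endothelial-type cells. The neural crest factor SOX10 was at 2.44 CPM in SBC3 and 17.6 in SBC7, with 97.4% of its SBC7 molecules in 10 cells. The neural genes SOX2, at 15.8 and 40.6 CPM, and SOX21, at 19.4 and 50.7, were found at equal depth in 9.16% and 9.89% of SBC7 cells and in 4.69% and 3.52% of SBC3 cells, against 75.1% and 77.8% of neural tube cells. The neural tube cells were chosen by SOX2, SOX21 and PAX6, so their high shares follow from that choice. Summed marker lists were 178 and 182 CPM for neural crest (8 genes), 160 and 176 for neural tube (13 genes), 88.6 and 64.4 for endothelium (11 genes), 16.1 and 9.29 for macrophages (9 genes) and 27.3 and 22.5 for hindgut endoderm (10 genes). The near-equal neural crest sums hide differences between genes. Of 4 neural crest genes at 10 CPM, 3 were higher in SBC7, 2 of them past 1.5-fold, and the median log2 ratio was 1.19. TFAP2B had a log2 ratio of 1.84, and of 0.22 without cells carrying other types' molecules. Somite and muscle precursor genes (14) summed to 759 and 519 CPM, with MEOX1 at 301 CPM in SBC3, 196 in SBC7 and 74.8 in SBC2. Tailbud and presomitic genes (10) summed to 379 and 296 CPM, and surface ectoderm genes (14) to 144 and 176 CPM. MEOX1 was near equal in SBC3 and SBC7 of the other types, for example at 104 and 105 CPM in splanchnic mesoderm. No listed marker gene of these types was at 0 in both barcodes.

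With cells that carried such molecules left out, 710 SBC3 and 228 SBC7 cells remained (those removed had at least 20 of haemoglobin, 5 of SOX10 and TFAP2B, or 5 of SOX2 and SOX21). Then 82 genes were at least 1.5-fold higher in SBC7 and 106 lower. This choice was made after the data had been seen. The log2 ratio was then 1.62 for ALX4, 1.57 for CRABP1, -1.02 for HOXD12, -0.91 for HOXD13, -1.14 for TBX3, -1.58 for SHOX2, 0.93 for ASNS and 0.99 for PHGDH, each still past 1.5-fold. The haemoglobin and SOX10 differences did not remain, as the choice removes such cells by construction. These genes were thus past 1.5-fold also without the cells, unlike LMX1B.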

How the data were processed

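Both libraries, the whole transcriptome and the lipid barcodes, come as 1 deposited table of molecule counts per gene and cell, not normalized. Per the file headers it was made with the BD Rhapsody WTA pipeline 1.11 on GRCg7b with Ensembl release 107, with intronic reads included and an exact cell count of 60000; intronic reads add nuclear RNA. Per the submitters' processing notes, R 3.6.2 and Seurat were used. The table's barcode columns were taken as counts with no link to treatment. The library names in the header carry a different number than those of the labels; no second table was used. Rows are cells, joined across both libraries.

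Counts were summed over the cells of a barcode and divided by the sum per 1000000 (CPM). With 1 pooled sample per barcode there was no test. A gene counted where the ratio reached 1.5-fold and the mean of both CPM values 10. Shares used cells thinned to 4000 molecules (seed 1). No doublet caller was run, and doublets were not removed. Named genes were the 12 largest and 12 smallest ratios, in each list the 2 highest genes and the 2 with the ratio farthest from 1, and fixed positional factors; TBX3, TBX2, ALDH1A2, CYP26A1, ASNS, CBS, HOXC10, HOXC11, HOXC12, HOXC13, HOXA10 and TBX5 were added after their values were seen. The members and lists were chosen with earlier results of these data known. Other cell types were set by marker thresholds. Code was tested on simulated data. Coordinates are RefSeq's on GRCg7b, where 12399 of 28190 gene columns matched. Python 3.11.15, numpy 2.4.6, scipy 1.17.1, pandas 2.3.3 and matplotlib 3.10.9 were used.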

Additional observations from a re-analysis of the deposited data

Results flagged for a closer look

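The 3 barcode columns that no cell of this kind was assigned to still held molecules in the 1040 cells: 226 of SBC4, 348 of SBC5 and 392 of SBC8, each above the 3 that a count of 0 allows. They were at most 0.0232% of the barcode molecules of the SBC3 cells (SBC8), and at most 0.0217% of those of the SBC7 cells (SBC4). A single SBC3 cell held up to 17 molecules of SBC8.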

How the results depend on the processing

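No paired analysis was possible because each barcode is 1 pooled sample with no replicate. Of 46 named genes past 1.5-fold, 20 stayed past it under all 14 alternatives, among them ALX4, CRABP1, GREM1, CYP26A1, LUM, HOXD12, SHOX2, WT1, NEK4, ASNS and PHGDH. LMX1B ran from -0.70 to -0.54 (log2) and missed 1.5-fold under 4, as did ALDH1A2 (-0.76 to -0.38) and MEOX1 (-1.44 to -0.42); ZFP36L1 missed it under 5, MNX1 under 4, HOXC11 (to -0.34) and POSTN (to -0.54) under 3, HOXB1 (to 0.42) under 2 and HOXC12 (to -0.54) under 1; TBX3 (-0.55) and HOXD13 (-0.56) missed it with at most 10% mitochondrial molecules. The limb share in SBC3 and SBC7 was 21.1% and 20.4% with a barcode at least 5 times the next, 24.9% and 14.8% at 10 times, 12.6% and 13.8% with at most 10% mitochondrial molecules, 12.7% and 12.8% with stricter and 20.2% and 20.0% with looser markers, and 22.9% and 21.0% without cells carrying other types' molecules; with at most 60000 molecules it was 17.6% and 20.2%. At 10 times only 8 SBC7 cells were left, and 509 genes were higher and 1070 lower in SBC7; with at most 10% mitochondrial molecules, 50 and 46 cells were left and 188 and 345 genes. A minimum of 50 CPM gave 9 and 34 genes, and no minimum 2935 and 2726. Lists past 1.5-fold in their sum were 3, and 6 at 5 times, 6 at 10 times and 5 with at most 10% mitochondrial molecules. LMX1B was found in 77.7% and 78.4% of cells without thinning, 63.4% and 55.1% at 10000 molecules, and 52.6% and 50% at 10 times. SHH reversed with at most 10% mitochondrial molecules (1.49), and without cells carrying other types' molecules so did HBAD (0.00702), MNX1 (0.31), SOX10 (-0.0655) and SOX21 (-0.10), where HBAD, SOX10 and SOX21 were among the genes used to remove cells; for SHH and MNX1 the cause was not tested. The depth limits genes under 10 CPM, such as SHH.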
